A study of Mus musculus with 24 samples.

Results

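The genes described here are 53 mouse genes that carry a cell through mitosis. They comprise the kinase Cdk1 with its cyclins, the mitotic kinases, the spindle checkpoint, the anaphase machinery, the centromere and kinetochore, the chromosomal passenger complex, the mitotic kinesins, the condensins with other chromosome proteins, and the cytokinesis proteins. They were chosen as a list of symbols by function and not by a cut on their values, but with earlier results of these data known. On the arrays 52 of the 53 were measured by a probe set that matched 1 gene symbol, out of 19351 genes in all. Ccnb1, which encodes cyclin B1, had no such probe set and was not analysed here. Each of the 52 had exactly 1 probe set. None of their values lay below the lower quartile of its array (0 of the values at each stage), and no low-value filter was applied.

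The samples came from the developing diaphragm of C57BL/6J mice, dissected out of cryosections by laser capture and hybridised to Affymetrix Mouse Gene 1.0 ST arrays. Each of 3 stages had 8 arrays. At E11.5 and again at E12.5 the tissue was the pleuroperitoneal fold, a ridge on either side from which the diaphragm grows, and at E16.5 it was the muscularised diaphragm. All embryos were of the same strain, and no genotype or treatment was named. Folds were cut from transverse sections and the E16.5 diaphragm from sagittal ones, so that section plane and stage cannot be told apart between the folds and E16.5. The labels do not say which arrays came from separate embryos or whether tissue was pooled, and the p-values therefore measure the spread between arrays, part of which may be technical. In such dissected tissue, fewer dividing cells and less RNA per dividing cell cannot be told apart.

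At mitosis the duplicated chromosomes condense, attach to spindle microtubules through kinetochores built on their centromeres, and are held back by the spindle checkpoint until every kinetochore is attached. The anaphase-promoting complex then destroys cyclin B and securin, the sister chromatids separate, and a contractile ring divides the cell. Transcripts of most of these genes are made from late S phase to mitosis and are low in resting cells, since a promoter element known as the CHR, bound by the MuvB complex, holds them down outside the cycle. In developing muscle, myoblasts leave the cycle before they fuse into fibres, while progenitors and the connective tissue cells around them may go on dividing.

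The promoters of these genes are shown first because the CHR and the CCAAT box are the sequence features that mitotic genes are best known to share. The sequences, from RefSeq on the mouse build GRCm38.p6, run 5′ to 3′ on the strand of the gene, from 250 bases before its start to 50 bases after it. Capitals mark every match, on either strand, to the CHR letters TTTGAA or TTCGAA or to CCAAT. On the other strand a CCAAT box is read as attgg, here in capitals too. The members with the strongest falls by E16.5 and the member with the highest change against E11.5 are printed, and Cdk1 and Cdc20 were added after their matches had been seen. The strand and position are minus at chr13:100775850-100776149 for Cenph, minus at chr2:127831810-127832109 for Bub1, plus at chr2:118597961-118598260 for Bub1b, plus at chr1:191821223-191821522 for Nek2, minus at chr10:69352863-69353162 for Cdk1 and minus at chr4:118437294-118437593 for Cdc20.
Cenph: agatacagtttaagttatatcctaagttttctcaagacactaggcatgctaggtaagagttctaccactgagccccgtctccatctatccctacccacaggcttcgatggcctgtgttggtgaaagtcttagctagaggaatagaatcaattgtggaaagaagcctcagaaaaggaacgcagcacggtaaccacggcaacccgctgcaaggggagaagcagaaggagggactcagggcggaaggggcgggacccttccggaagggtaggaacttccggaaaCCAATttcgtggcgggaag
Bub1: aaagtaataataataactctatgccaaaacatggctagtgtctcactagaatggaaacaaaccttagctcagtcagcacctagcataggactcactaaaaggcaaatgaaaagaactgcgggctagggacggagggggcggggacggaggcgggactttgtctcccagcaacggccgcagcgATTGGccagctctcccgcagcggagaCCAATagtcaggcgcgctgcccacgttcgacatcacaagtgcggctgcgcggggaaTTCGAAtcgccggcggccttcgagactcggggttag
Bub1b: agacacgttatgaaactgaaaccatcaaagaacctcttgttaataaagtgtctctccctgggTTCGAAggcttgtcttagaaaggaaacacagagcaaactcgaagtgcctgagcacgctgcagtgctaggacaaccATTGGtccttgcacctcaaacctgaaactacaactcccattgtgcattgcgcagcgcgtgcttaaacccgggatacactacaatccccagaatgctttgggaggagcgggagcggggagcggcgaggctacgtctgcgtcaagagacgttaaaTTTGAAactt
Nek2: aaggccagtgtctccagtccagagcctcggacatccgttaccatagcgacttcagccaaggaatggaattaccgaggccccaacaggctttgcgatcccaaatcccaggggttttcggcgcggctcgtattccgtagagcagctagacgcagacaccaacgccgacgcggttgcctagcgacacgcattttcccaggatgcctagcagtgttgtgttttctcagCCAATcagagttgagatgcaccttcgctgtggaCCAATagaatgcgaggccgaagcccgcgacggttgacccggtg
Cdk1: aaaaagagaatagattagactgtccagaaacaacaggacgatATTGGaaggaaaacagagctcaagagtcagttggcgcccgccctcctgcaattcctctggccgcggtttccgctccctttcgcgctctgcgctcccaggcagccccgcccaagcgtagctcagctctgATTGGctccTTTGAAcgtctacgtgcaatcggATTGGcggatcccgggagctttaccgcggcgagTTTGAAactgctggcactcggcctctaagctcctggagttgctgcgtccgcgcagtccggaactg
Cdc20: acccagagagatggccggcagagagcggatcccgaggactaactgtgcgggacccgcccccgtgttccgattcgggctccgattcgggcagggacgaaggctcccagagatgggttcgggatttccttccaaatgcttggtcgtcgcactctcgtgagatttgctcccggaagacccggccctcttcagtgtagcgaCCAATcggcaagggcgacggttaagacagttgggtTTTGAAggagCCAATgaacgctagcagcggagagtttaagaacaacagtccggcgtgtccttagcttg

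Counting from the start as base 1, the TTTGAA of Cdc20 began at -18 and lay between CCAAT boxes at -53 and -8. Cdk1 held TTTGAA at -71 and at -15, and Bub1 held TTCGAA at 15. Bub1b had TTCGAA at -188 and TTTGAA at 41. Cenph, which fell most, and Nek2, which did not pass the test, both held CCAAT and neither CHR form in these windows. Promoter entries matched 46 of the 53 genes, with 51 promoters, since 4 genes have several. Ccna2, Spc24, Aurkb, Incenp, Kif20a, Tpx2 and Smc4 had no entry.

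The CHR letters were common among these promoters. TTTGAA or TTCGAA, searched on both strands, was found in 35 of 51 (68.6%), against 19.2% of all 32851 promoters of the table and 16.4% of the 18963 promoters of genes on the arrays. TTTGAA alone was in 34 of 51 (66.7%, against 17.9% of all), and TTCGAA, which reads the same on both strands, in 3 of 51 (5.88%, against 1.56%). CCAAT was in 38 of 51 (74.5%, against 37.4%). Both features together were in 30 of 51 (58.8%, against 7.52% of all and 6.54% of those of genes on the arrays). Windows of Bub3, Ect2 and Prc1 overlap and hold the same matches, so these are counted more than once. By gene, 32 of 46 held a CHR form, 33 held CCAAT and 27 held both. A match describes letters and not a bound site.

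The arrays had medians of 7.44 to 7.55 over all probe sets, on the log2 scale used throughout, and precision is limited by how many arrays there are. The markers of the labelled tissue were present: the mean of 20 skeletal muscle markers per array was 7.97 to 9.09 in the E11.5 arrays, 8.12 to 11.00 in those of E12.5 and 11.72 to 12.56 in those of E16.5, and 19 of the 20 were higher at E16.5 than at E11.5. The mean of 13 markers of fold mesenchyme was 9.14 to 9.66, 9.16 to 9.67 and 8.92 to 9.16 at the same stages. Its genes moved in both directions, with 7 of 13 lower and 4 higher at E16.5 than at E11.5, from -2.38 (Tbx5) to 2.55 (Dcn). Markers of other cells were seen too. The mean of 18 hepatocyte markers was 6.59 to 6.87, 7.35 to 11.70 and 8.85 to 10.91, with 15 of 18 higher at E16.5 than at E11.5. The mean of 12 erythroid markers was 8.81 to 9.31, 8.53 to 10.57 and 7.79 to 9.47, with 2 of 12 (16.7%) lower and 1 higher at E16.5 than at E11.5. Between these stages 19.6% of all genes were lower and 13.8% higher, so neither erythroid count exceeded the share of all genes. At E12.5 both upper ends came from replicate 2 (hepatocyte 11.70, erythroid 10.57). The next means were 9.55 for hepatocyte markers (replicate 4) and 9.46 for erythroid markers (replicate 5). E12.5 replicate 2 also had the lowest muscle mean at E12.5 (8.12) and the highest mean of the mitotic genes of any array (10.03). Whether these features of that array are linked was not tested. Calls lost without it are named below. The E16.5 arrays fell into a set of replicates 1 to 4 and a set of replicates 5 to 8 that the labels do not explain and that was known from an earlier view of these data. Counts are therefore given with all 8 arrays and again without either set, and the members whose call rested on a set are named.

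Between E11.5 and E12.5 the mitotic genes did not change past the threshold. In limma, with Benjamini-Hochberg adjustment over all 19351 genes, 0 of 52 were lower and 0 were higher, at a background of 0.0568% of all genes lower and 0.331% higher. Without adjustment 1 of 52 was lower and 1 higher at p under 0.05, where 1575 and 1214 of the 19351 genes were. An unmoderated unequal-variance test called 0 of all 19351 genes after adjustment, so it says nothing particular about the members. The median change of the 52 was -0.04 on the log2 scale, against -0.03 over all genes. In 0 of 52 did every E12.5 array lie below every E11.5 array (0.0362% of all genes), and 0 of 52 fell by 2-fold or more (0.0103%). The mean of the 52 per array was 9.72 to 10.03 at E11.5 and 9.72 to 10.03 at E12.5, so the folds of both days overlapped fully. The members closest to the threshold were Bub3, a checkpoint protein that binds phosphorylated kinetochore repeats, at -0.23 ± 0.09 (SE, adjusted p = 0.269), and Nek2, a kinase that parts the centrosomes, at 0.42 ± 0.19 (adjusted p = 0.315).

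By E16.5 almost all of these genes were lower than in the folds, and none was higher. Against E12.5, 46 of 52 were lower at adjusted p under 0.05, where 15.6% of all genes tested were lower and 2223 of the 19351 were higher. The median change of the 52 was -0.71, against -0.02 over all genes, and 4 of 52 were lower by 2-fold or more (1.76% of all genes). Against E11.5, 48 of 52 were lower, where 19.6% of all genes were lower and 13.8% higher, with a median of -0.72 (all genes -0.08), and 8 of 52 fell by 2-fold or more (1.95% of all genes). Among the 9675 genes above the median gene in mean level, where 50 of the 52 lay, 26.6% were lower against E12.5 and 26.5% against E11.5. These comparisons share the E16.5 arrays and are not independent of each other.

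In 22 of 52 members every E16.5 array lay below every E12.5 array, which held for 5.4% of all genes. The same was so against E11.5 in 8 of 52 (3.86% of all genes), namely Plk1, Melk, Bub1b, Bub3, Cdc20, Kif20a, Top2a and Ncapd2. In both comparisons together 45 members were lower. The share of all genes lower in both was not counted, but it cannot exceed the 15.6% that were lower against E12.5. That bound applies as well to the counts by role given below for both comparisons. Pttg1, Cenpn and Kif18a were lower against E11.5 and not against E12.5, Ccna2 against E12.5 and not against E11.5, and Nek2, Cenpi and Spc25 against neither.

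The size of the fall differed between roles, which were not tested against each other. The median change against E11.5 was -1.11 over the 5 spindle checkpoint genes and -0.96 over the 5 mitotic kinases. It was -0.77 over the 4 passenger genes and over the 9 kinesins and spindle proteins, and -0.73 over the 7 genes of chromosome structure. The 11 centromere and kinetochore genes had -0.67, the 4 anaphase genes -0.62, the 4 cytokinesis genes -0.60 and Cdk1 with its cyclins -0.48. Against E12.5 the checkpoint genes again had the largest median (-1.04) and Cdk1 with its cyclins the smallest (-0.44).

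**Figure D1:**
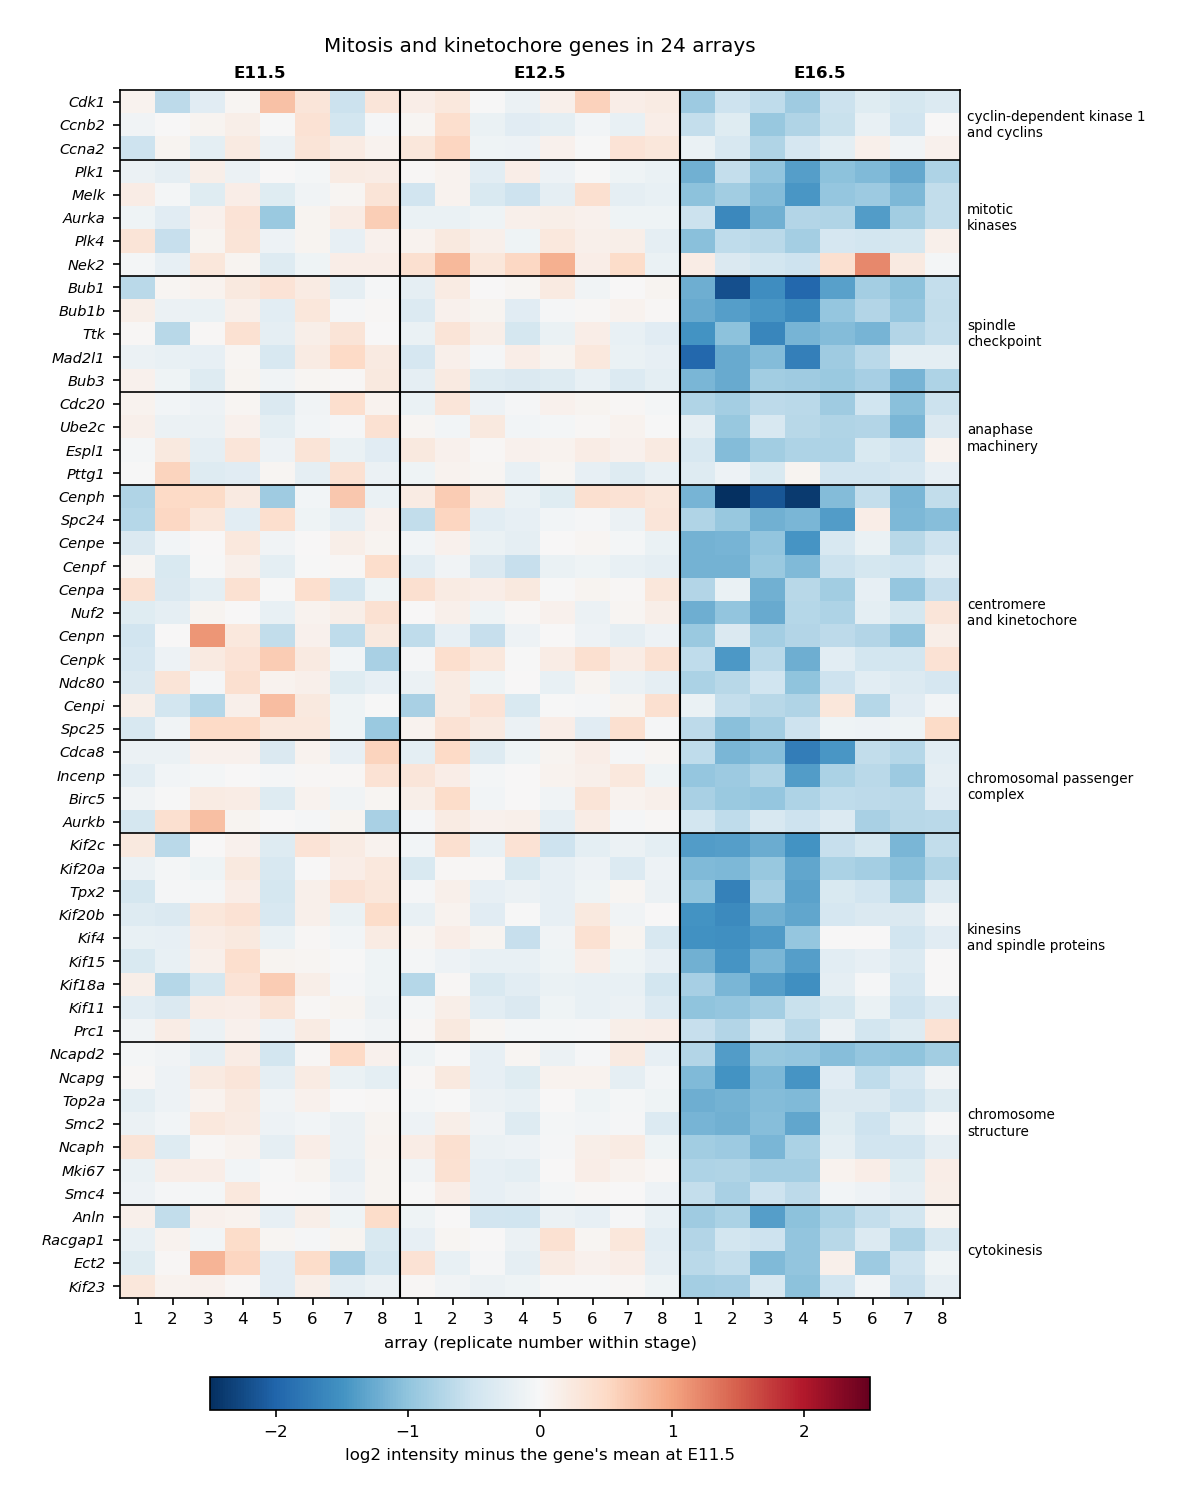
The 52 measured genes (rows, grouped by role) on each of the 24 arrays (columns, by stage and replicate), coloured by the log2 value minus the mean of the gene at E11.5. The E11.5 and E12.5 columns look alike, the E16.5 columns are lower in most rows, and within E16.5 replicates 1 to 4 are lower than replicates 5 to 8 in many rows.

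The plot of every gene on every array shows lower values at E16.5 in each of the roles, which are taken in turn, beginning with the kinase that starts mitosis. Cdk1 is the cyclin-dependent kinase that drives entry into mitosis. Its lowest, median and highest log2 values were 9.63, 10.36 and 11.03 at E11.5, 10.15, 10.46 and 10.87 at E12.5, and 9.39, 9.77 and 10.00 at E16.5. All E16.5 arrays lay below all E12.5 arrays, but the spread at E11.5 was wide and overlapped with E16.5. Cdk1 changed by -0.74 ± 0.16 against E12.5 (adjusted p = 0.000683) and by -0.57 ± 0.16 against E11.5 (adjusted p = 0.00626). Ccnb2, which encodes cyclin B2, fell by 0.48 ± 0.13 against E11.5 (adjusted p = 0.00503). Without E16.5 replicates 1 to 4 the call of Cdk1 against E11.5 was lost (-0.40, adjusted p = 0.15), as was that of Ccnb2 (-0.31, adjusted p = 0.135).

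Ccna2 encodes cyclin A2, which acts in S phase and again at entry into mitosis. It ran over 10.18, 10.77 and 11.01 at E11.5, 10.57, 10.88 and 11.24 at E12.5, and 9.94, 10.49 and 10.83 at E16.5 (lowest, median, highest). The 3 stages overlapped. The change was -0.39 ± 0.13 against E12.5 (adjusted p = 0.0273) and -0.23 ± 0.13 against E11.5 (adjusted p = 0.185). The former call did not hold without E12.5 replicate 2 or 7 or E16.5 replicate 2, 3 or 4 (adjusted p of 0.0522 to 0.0679), nor without E16.5 replicates 1 to 4 together (-0.19, adjusted p = 0.465). Without E16.5 replicates 5 to 8 Ccna2 was also lower against E11.5 (-0.43, adjusted p = 0.0375).

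Of the 5 mitotic kinases 4 were lower in both comparisons. Plk1, polo-like kinase 1, which acts from centrosome maturation to cytokinesis, had 9.53, 9.74 and 9.97 at E11.5, 9.49, 9.70 and 9.93 at E12.5, and 8.39, 8.70 and 9.17 at E16.5. Its E16.5 arrays all lay below those of both folds, and its spread within each stage was small. Plk1 fell by 1.04 ± 0.10 against E11.5 (2.06-fold, adjusted p = 6.77e-09) and by 0.99 ± 0.10 against E12.5 (adjusted p = 2.35e-08). Against E11.5, Melk, a kinase of dividing progenitor cells, fell by 1.01 ± 0.13, Aurka, the centrosomal Aurora kinase, by 0.96 ± 0.17 and Plk4, which licenses centriole duplication, by 0.55 ± 0.14. Without E16.5 replicates 1 to 4 the change of Plk4 was -0.30 (adjusted p = 0.159).

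Nek2 was the exception among the kinases. It had 7.65, 7.98 and 8.26 at E11.5, 7.82, 8.40 and 8.86 at E12.5, and 7.45, 8.04 and 9.17 at E16.5. The E16.5 arrays held both its lowest and its highest value, and they overlapped with both folds. Its difference was 0.08 ± 0.19 against E11.5 (adjusted p = 0.781) and -0.34 ± 0.19 against E12.5 (adjusted p = 0.206). Without E16.5 replicate 6, which had the highest value, the difference from E12.5 was -0.50 (adjusted p = 0.0158). In E16.5 replicates 5 to 8 alone Nek2 stood 0.45 above the E11.5 mean and 0.03 above that of E12.5.

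The spindle checkpoint, which delays anaphase until all kinetochores are attached, fell in all 5 of its members in both comparisons. Bub1, the checkpoint kinase of the kinetochore, had 9.76, 10.50 and 10.78 at E11.5, 10.22, 10.47 and 10.66 at E12.5, and 8.24, 9.16 and 9.84 at E16.5. The E16.5 arrays lay below all E12.5 arrays, while 7 of 8 lay below all E11.5 arrays. Bub1 fell by 1.35 ± 0.18 against E11.5 (2.54-fold, adjusted p = 1.58e-06) and by 1.38 ± 0.18 against E12.5 (adjusted p = 1.43e-06).

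Bub3, the partner that brings Bub1 and the product of Bub1b to kinetochores, had the smallest fall of the checkpoint genes. It had 9.58, 9.94 and 10.15 at E11.5, 9.54, 9.61 and 10.12 at E12.5, and 8.63, 9.00 and 9.12 at E16.5. No E16.5 array overlapped with either fold. Bub3 fell by 0.98 ± 0.09 against E11.5 (adjusted p = 5.03e-09) and by 0.76 ± 0.09 against E12.5 (adjusted p = 5.15e-07). Bub1b, which encodes the checkpoint protein BubR1, fell by 1.12 ± 0.12 against E11.5, Ttk, the Mps1 kinase that starts checkpoint signalling, by 1.11 ± 0.15 and Mad2l1, which encodes the inhibitor Mad2, by 1.01 ± 0.20.

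**Figure D2:**
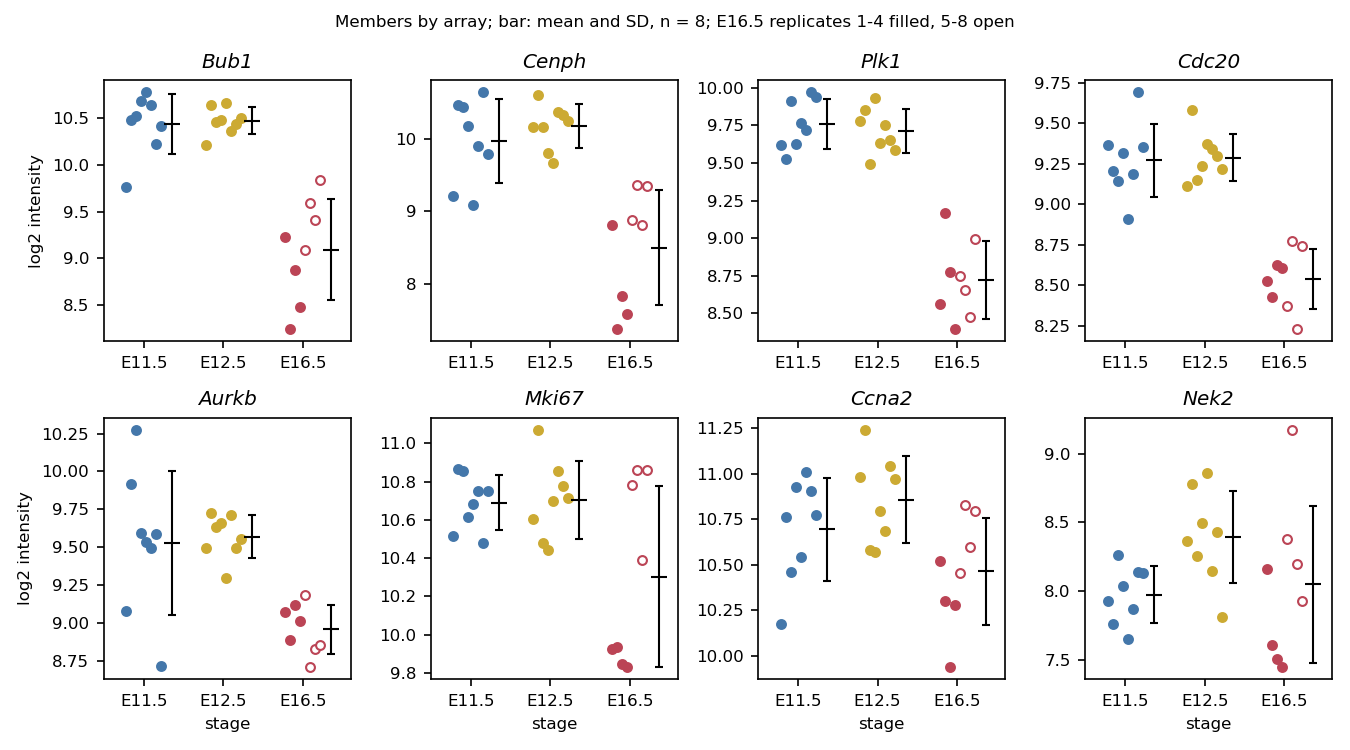
Log2 values of Bub1, Cenph, Plk1, Cdc20, Aurkb, Mki67, Ccna2 and Nek2 on each array, by stage, with the mean and SD of the 8 arrays as bars; at E16.5 replicates 1 to 4 are filled and replicates 5 to 8 open. Plk1 and Cdc20 at E16.5 lie below both folds in all 8 arrays, Mki67 at E16.5 separates by set, and Nek2 overlaps at all stages.

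The anaphase machinery fell in 4 of 4 members against E11.5 and in 3 of 4 against E12.5. Cdc20, the activator of the anaphase-promoting complex that the checkpoint inhibits, had 8.91, 9.26 and 9.69 at E11.5, 9.11, 9.27 and 9.58 at E12.5, and 8.23, 8.56 and 8.77 at E16.5. The plot of 8 members by array shows the E16.5 values of Cdc20 below all fold values. Cdc20 fell by 0.74 ± 0.09 against E11.5 (adjusted p = 1.08e-06) and by 0.75 ± 0.09 against E12.5 (adjusted p = 1.01e-06). Ube2c, the ubiquitin-conjugating enzyme of that complex, fell by 0.66 ± 0.11 against E11.5, and Espl1, which encodes separase, the protease that cleaves cohesin, by 0.59 ± 0.13.

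Pttg1 encodes securin, the inhibitor of separase that the complex destroys. It had 10.35, 10.61 and 11.24 at E11.5, 10.37, 10.54 and 10.76 at E12.5, and 10.20, 10.33 and 10.74 at E16.5, with overlap between all stages. Its change was -0.29 ± 0.11 against E11.5 (adjusted p = 0.0492) and -0.19 ± 0.11 against E12.5 (adjusted p = 0.247). The former call was lost when any 1 of 18 of the 24 arrays was left out (adjusted p of 0.0502 to 0.115), which covers all arrays except E11.5 replicates 3, 4, 6 and 8 and E16.5 replicates 2 and 4. It was lost as well without E16.5 replicates 5 to 8 (-0.19, adjusted p = 0.349).

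At the centromere and kinetochore, 9 of 11 members were lower against E11.5 and 8 of 11 against E12.5. Cenph, a subunit of the constitutive centromere network, had the largest fall of all members. It had 9.08, 10.04 and 10.64 at E11.5, 9.67, 10.21 and 10.61 at E12.5, and 7.37, 8.81 and 9.36 at E16.5. The E16.5 arrays lay below all E12.5 arrays and spread over a wider range than either fold, and the 2 lowest E11.5 arrays overlapped with them. Cenph fell by 1.67 ± 0.28 against E12.5 (3.19-fold, adjusted p = 4.66e-05) and by 1.47 ± 0.28 against E11.5 (2.77-fold, adjusted p = 0.000188).

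Spc25 is a subunit of the Ndc80 complex, which binds the spindle microtubules. It had 8.58, 9.59 and 10.01 at E11.5, 9.22, 9.63 and 9.91 at E12.5, and 8.46, 9.18 and 9.99 at E16.5. All stages overlapped, with a change of -0.37 ± 0.20 against E11.5 (adjusted p = 0.164) and of -0.47 ± 0.20 against E12.5 (adjusted p = 0.0926). It passed against E11.5 without E11.5 replicate 8 (adjusted p = 0.0404) and against E12.5 without E16.5 replicate 8 (adjusted p = 0.0219).

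The partners of Spc25 in the Ndc80 complex were lower in both comparisons. Against E11.5, Spc24 fell by 0.93 ± 0.20, Nuf2 by 0.67 ± 0.16 and Ndc80 by 0.56 ± 0.11. Whether Spc25 differed from its partners was not tested. Of the inner kinetochore proteins, Cenpa, the histone H3 variant that marks the centromere, fell by 0.68 ± 0.14, and Cenpn, which binds Cenpa nucleosomes, by 0.64 ± 0.20. Cenpk, a partner of Cenph, fell by 0.60 ± 0.20, a call that did not hold without E11.5 replicate 5 or E16.5 replicate 2 or 4 (adjusted p of 0.0577 to 0.0602). Of the outer proteins, the kinesin Cenpe fell by 0.82 ± 0.14 and Cenpf, of the fibrous corona, by 0.77 ± 0.13. Cenpi, of the same network as Cenph, had a difference of -0.37 ± 0.19 (adjusted p = 0.143). Without E16.5 replicates 1 to 4 the calls of Nuf2, Cenpn and Cenpk were lost, at -0.29, -0.56 and -0.21 (adjusted p of 0.17, 0.13 and 0.51).

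The 4 members of the chromosomal passenger complex, which corrects wrong attachments and later steers cytokinesis, were lower in both comparisons. Cdca8, which encodes the subunit borealin, had 9.28, 9.62 and 10.20 at E11.5, 9.32, 9.66 and 10.15 at E12.5, and 7.91, 8.75 and 9.38 at E16.5. Of its 8 arrays at E16.5, 7 lay below every array of either fold. Cdca8 fell by 0.95 ± 0.17 against E11.5 (adjusted p = 8.9e-05) and by 0.96 ± 0.17 against E12.5 (adjusted p = 9.01e-05).

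Aurkb, the kinase of that complex, had 8.72, 9.56 and 10.28 at E11.5, 9.30, 9.59 and 9.72 at E12.5, and 8.71, 8.95 and 9.18 at E16.5. Its E16.5 arrays were the tightest of any member (SD 0.16) and lay below all E12.5 arrays, but the wide E11.5 range left only 1 of them below every E11.5 array. Aurkb fell by 0.57 ± 0.14 against E11.5 (adjusted p = 0.00352) and by 0.61 ± 0.14 against E12.5 (adjusted p = 0.00206). Against E11.5, Incenp, the scaffold, fell by 0.83 ± 0.11 and Birc5, which encodes survivin, by 0.71 ± 0.10.

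Among the kinesins and spindle proteins 9 of 9 were lower against E11.5 and 8 of 9 against E12.5. Kif2c, which encodes the microtubule depolymerase MCAK, had 8.77, 9.53 and 9.77 at E11.5, 8.92, 9.28 and 9.83 at E12.5, and 7.94, 8.24 and 8.99 at E16.5. The highest E16.5 arrays reached into both folds. Kif2c fell by 1.04 ± 0.17 against E11.5 (adjusted p = 3.44e-05) and by 0.96 ± 0.17 against E12.5 (adjusted p = 0.000111).

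Prc1, which bundles the antiparallel microtubules of the midzone, had the smallest fall of the spindle genes against E11.5. It had 9.40, 9.50 and 9.76 at E11.5, 9.51, 9.60 and 9.80 at E12.5, and 8.82, 9.11 and 9.92 at E16.5, where 1 array exceeded all fold arrays. Prc1 fell by 0.37 ± 0.11 against E11.5 (adjusted p = 0.0118) and by 0.43 ± 0.11 against E12.5 (adjusted p = 0.00444). The motors Kif11, which drives the poles apart, and Kif15, which shares that task, fell by 0.60 ± 0.12 and 0.75 ± 0.18 against E11.5. The chromokinesin Kif4 fell by 0.77 ± 0.21, Kif20a, a midzone motor, by 0.99 ± 0.10, Kif20b, a motor of late cytokinesis, by 0.85 ± 0.20, and Tpx2, the activator of Aurka on the spindle, by 0.87 ± 0.16. Kif18a, which damps chromosome oscillation, fell by 0.69 ± 0.21 against E11.5 (adjusted p = 0.0135), and its difference from E12.5 was -0.40 ± 0.21 (adjusted p = 0.182). Several of these calls rested on E16.5 replicates 1 to 4. Without those arrays Kif4 stood at -0.19 against E11.5 (adjusted p = 0.406), Kif15 at -0.20 (adjusted p = 0.218) and Kif20b at -0.31 (adjusted p = 0.163). Kif18a stood at -0.17 (adjusted p = 0.562) and Prc1 at -0.14 (adjusted p = 0.417). The calls of Kif2c, Kif11, Kif20a and Tpx2 against E11.5 held.

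The 7 genes of chromosome structure were lower in both comparisons. Ncapd2, a subunit of condensin I, the ring complex that compacts mitotic chromosomes, had 9.10, 9.56 and 10.06 at E11.5, 9.36, 9.50 and 9.78 at E12.5, and 8.17, 8.60 and 8.84 at E16.5. No E16.5 array overlapped with either fold. Ncapd2 fell by 0.99 ± 0.11 against E11.5 (adjusted p = 5.36e-08) and by 0.94 ± 0.11 against E12.5 (adjusted p = 1.84e-07).

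Smc4, an ATPase core of the condensins, fell least of these genes. It had 11.31, 11.42 and 11.69 at E11.5, 11.23, 11.40 and 11.60 at E12.5, and 10.62, 11.07 and 11.57 at E16.5, with overlap. Smc4 fell by 0.36 ± 0.11 against E11.5 (adjusted p = 0.0111) and by 0.32 ± 0.11 against E12.5 (adjusted p = 0.0277). The latter call did not hold without E12.5 replicate 2 or any 1 of E16.5 replicates 1 to 4 (adjusted p of 0.0548 to 0.069). Without E16.5 replicates 1 to 4 together Smc4 stood at -0.07 against E11.5 (adjusted p = 0.582) and at -0.03 against E12.5 (adjusted p = 0.879), so that neither call held. Against E11.5, Smc2, the partner ATPase, fell by 0.73 ± 0.15, Ncapg by 0.83 ± 0.17 and Ncaph by 0.64 ± 0.12, both condensin I subunits, and Top2a, which encodes the topoisomerase that untangles sister DNA, by 0.77 ± 0.12. Of these, Smc2 (-0.28, adjusted p = 0.0694) and Ncapg (-0.35, adjusted p = 0.0515) lost their calls without the same 4 arrays.

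Mki67, which encodes the chromosome surface protein Ki-67, a common stain for cycling cells, was near the threshold. It had 10.48, 10.72 and 10.86 at E11.5, 10.44, 10.71 and 11.07 at E12.5, and 9.83, 10.16 and 10.86 at E16.5, where the upper arrays lay within the fold range. Its change was -0.39 ± 0.15 against E11.5 (adjusted p = 0.0469) and -0.40 ± 0.15 against E12.5 (adjusted p = 0.0452). Against E11.5 the call was lost on leaving out 1 of 16 arrays (highest adjusted p 0.105). The 8 whose removal left it in place were E11.5 replicates 1 and 7, E12.5 replicates 2, 3 and 4, and E16.5 replicates 5, 6 and 8. Against E12.5 it was lost on leaving out 1 of 14 (highest adjusted p 0.104), all except E11.5 replicates 1, 2, 3, 7 and 8, E12.5 replicates 3 and 4, and E16.5 replicates 5, 6 and 8.

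The 4 cytokinesis genes were lower in both comparisons. Anln, which encodes anillin, the scaffold of the contractile ring, had 8.96, 9.67 and 10.04 at E11.5, 9.08, 9.41 and 9.57 at E12.5, and 8.20, 8.79 and 9.64 at E16.5. The stages overlapped at the upper end of E16.5. Anln fell by 0.73 ± 0.15 against E11.5 (adjusted p = 0.000611) and by 0.53 ± 0.15 against E12.5 (adjusted p = 0.0114). Without E16.5 replicates 1 to 4 neither held, at -0.44 (adjusted p = 0.0582) and -0.24 (adjusted p = 0.388).

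Kif23, the motor of the centralspindlin complex, had 10.01, 10.34 and 10.58 at E11.5, 10.14, 10.24 and 10.31 at E12.5, and 9.26, 9.76 and 10.22 at E16.5. Of its E16.5 arrays 6 lay below every E11.5 array and 7 below every E12.5 array. Kif23 fell by 0.56 ± 0.11 against E11.5 (adjusted p = 0.000353) and by 0.50 ± 0.11 against E12.5 (adjusted p = 0.00108). Its partner Racgap1 fell by 0.61 ± 0.11 against E11.5. Ect2, the exchange factor that activates RhoA for the ring, fell by 0.59 ± 0.20, a call that did not hold without E11.5 replicate 3, 4 or 6 or E16.5 replicate 3, 4 or 6 (adjusted p of 0.051 to 0.0636). Against E12.5 Ect2 fell by 0.62 ± 0.20, which did not hold without E12.5 replicate 1 or E16.5 replicate 3 or 4 (adjusted p of 0.0519 to 0.0586). Both calls of Ect2 were lost without E16.5 replicates 1 to 4 (adjusted p of 0.343 and 0.376), as was that of Kif23 against E12.5 (-0.28, adjusted p = 0.0708).

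**Figure D3:**
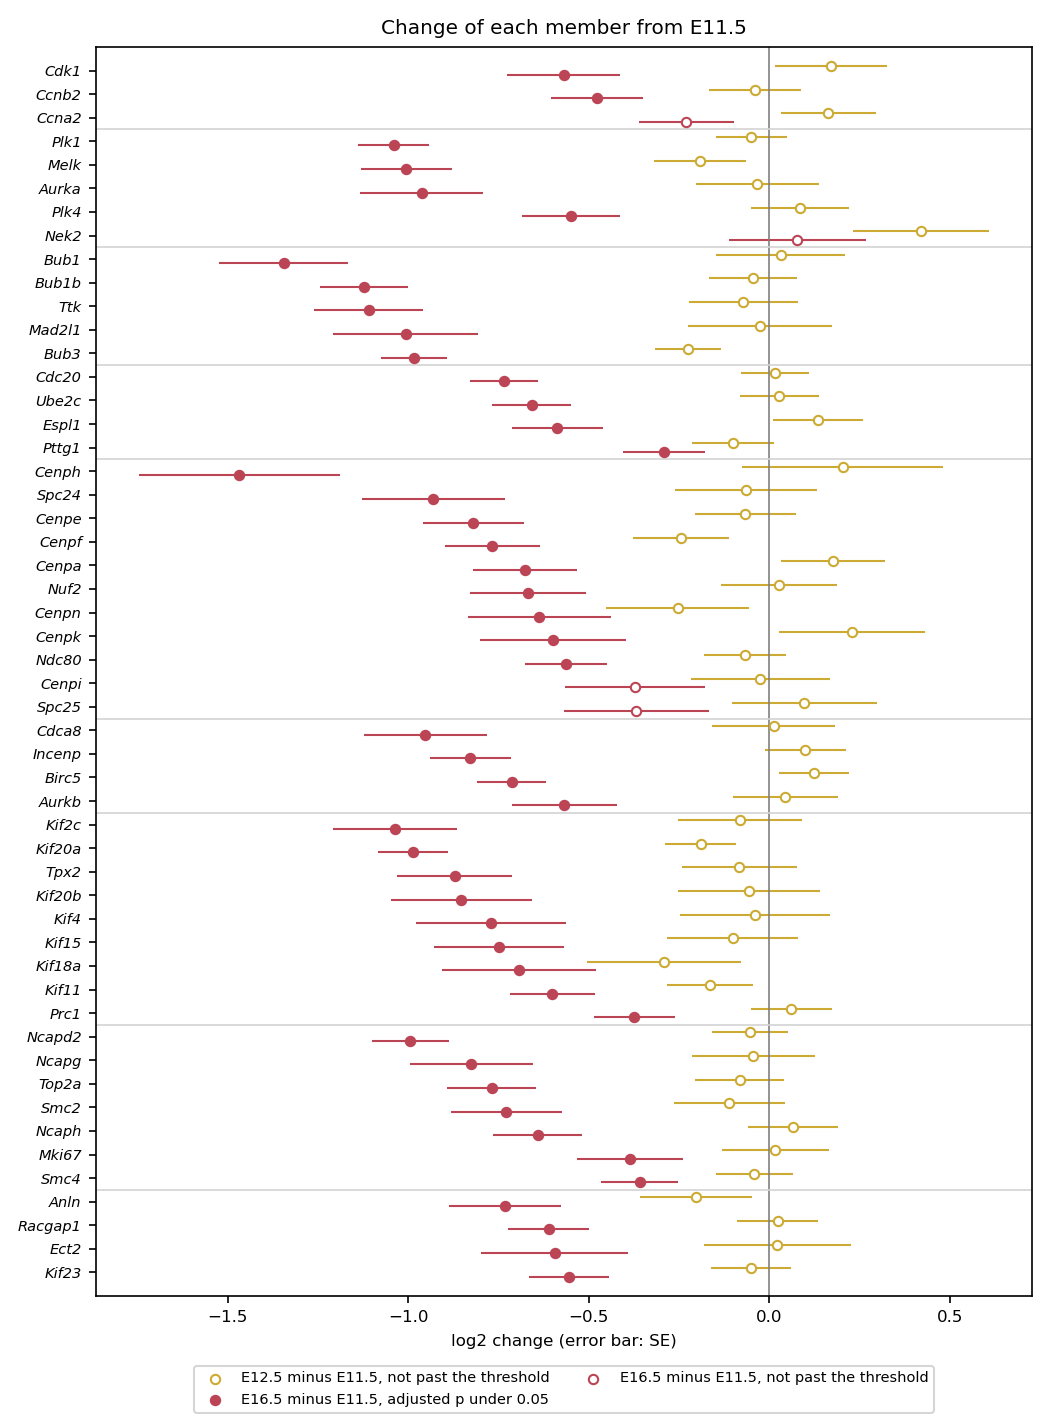
Log2 change of each of the 52 genes from E11.5 to E12.5 and from E11.5 to E16.5, with bars of 1 standard error from limma, grouped by role. Changes to E12.5 lie around 0 (median -0.04). Changes to E16.5 lie below 0 in 51 of 52 genes (12480 of all 19351 genes), with Nek2 as the exception and Cenph lowest at -1.47.

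The plot of changes by gene shows changes from E11.5 that lie around 0 at E12.5 and mostly below 0 at E16.5. The step from E12.5 to E16.5 is not drawn there, and the difference between the steps was tested in the same fit. The contrast was the change from E12.5 to E16.5 minus the change from E11.5 to E12.5, the E12.5 arrays enter both steps, and the later step spans more days. It was below 0 in 52 of 52 members (9123 of all 19351 genes), with a median of -0.70 (all genes 0.02). In 19 of 52 it passed the threshold, where 6.26% of all genes were lower and 11.4% of those above the median level. In the opposite direction 0 of 52 passed, where 4.52% of all genes did. The estimates were -1.88 ± 0.48 for Cenph (adjusted p = 0.0123), -1.41 ± 0.31 for Bub1 (adjusted p = 0.00371) and -1.03 ± 0.21 for Bub1b (adjusted p = 0.00203). The smallest adjusted p were those of Birc5 (-0.96 ± 0.17, adjusted p = 0.000398) and Plk1 (-0.94 ± 0.17, adjusted p = 0.000616).

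By role, 4 of 5 checkpoint genes (all but Mad2l1), 3 of 4 anaphase genes (all but Pttg1) and 3 of 4 passenger genes (all but Aurkb) passed in this contrast. Of the centromere and kinetochore 2 of 11 did, Cenpa and Cenph, and of the kinesins and spindle proteins 1 of 9, Kif20a. The others were Cdk1, Plk1, Plk4, Ncapd2, Ncaph and Racgap1. Over all genes 6.26% were lower in this contrast, and 11.4% of those above the median level. The share of the kinesins and spindle proteins (11.1%) was near the latter. With each array left out in turn 12 of the 19 calls held throughout. Those that did not were Plk4, which lost its call (adjusted p = 0.0495) without any 1 of 19 arrays, all except E11.5 replicates 1 and 4, E12.5 replicates 4 and 8 and E16.5 replicate 8. Cdca8 was lost without E12.5 replicate 2, 5, 6, 7 or 8 and Cdk1 without E12.5 replicate 2, 6, 7 or 8. Racgap1 was lost without E12.5 replicate 5, 6 or 7, Bub3 without E12.5 replicate 2 or 6, Kif20a without E12.5 replicate 3 and Ncaph without E12.5 replicate 2. The adjusted p in these fits, other than for Plk4, were 0.0511 to 0.0816, and for Plk4 0.052 to 0.102. Without E16.5 replicates 1 to 4 together these 7 calls were lost, and so were those of Cenph (-1.27, adjusted p = 0.0503), Espl1 (-0.66, adjusted p = 0.0578) and Ttk (-0.75, adjusted p = 0.0957).

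The E16.5 arrays were less alike than the fold arrays in these genes. The median SD of the 52 was 0.37 at E16.5, compared with 0.25 at E11.5 and 0.17 at E12.5. Among all genes above the median level it was 0.24 at E16.5, with 0.28 and 0.21 in the folds. The mean of the 52 per array was 8.80 to 8.96 in E16.5 replicates 1 to 4 and 9.22 to 9.58 in replicates 5 to 8, both below the fold arrays. The division of E16.5 was taken from these data, so the difference between the sets is given without a test.

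In 47 of 52 members the mean of replicates 1 to 4 was lower, and the median difference over all 52 was -0.47 (0.01 over all genes). In 21 of 52 every array of replicates 1 to 4 lay below every array of replicates 5 to 8, which held for 5.14% of all genes, and in 0 of 52 the reverse. Against the mean at E11.5, the median member stood at -1.01 in replicates 1 to 4 and at -0.42 in replicates 5 to 8.

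**Figure D4:**
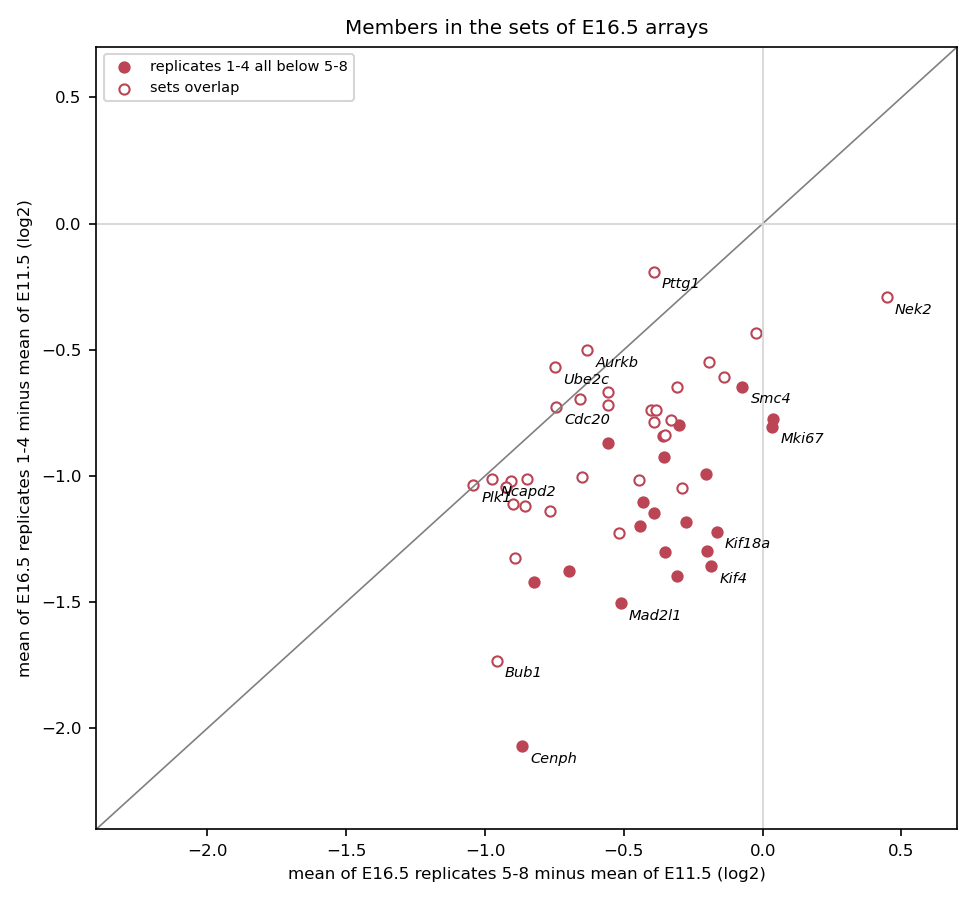
For each of the 52 genes, the mean of E16.5 replicates 5 to 8 (horizontal) and of replicates 1 to 4 (vertical), each minus the mean at E11.5, in log2 units; the diagonal marks equal values and filled points are the 21 genes whose sets do not overlap. Most points lie below the diagonal, and Plk1 and Cdc20 lie on it.

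The plot of one set against the other separates members that were low in both sets from members that were low in replicates 1 to 4. Cenph had a mean of 7.89 (7.37 to 8.81) in replicates 1 to 4 and of 9.10 (8.81 to 9.36) in replicates 5 to 8. Kif4 had 8.17 (7.99 to 8.57) and 9.34 (9.06 to 9.55), and Mki67 had 9.88 (9.83 to 9.93) and 10.72 (10.39 to 10.86). In replicates 5 to 8, Mki67 thus stood at the E11.5 level (0.03 above its mean), as did Spc25 (0.04 above).

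Among the kinesins, Kif15, Kif20b and Kif18a differed between the sets by -1.10, -1.09 and -1.06, with Kif18a at 7.03 and 8.08. By contrast Plk1 had 8.72 in both sets, Cdc20 had 8.55 and 8.53, Ncapd2 had 8.55 and 8.59, and Cenpa had 9.16 and 9.20. Plk1 was 1.04 below its E11.5 mean in either set. Ube2c (9.42 and 9.24), Aurkb (9.02 and 8.89) and Pttg1 (10.49 and 10.29) were somewhat higher in replicates 1 to 4, with overlap. Genes of the same complex could differ in this respect: the condensin subunits Smc2 and Ncapg differed by -0.91 and -0.95 between the sets and Ncapd2 by -0.04.

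Without replicates 1 to 4 the counts fell to 27 of 52 against E12.5 (median -0.40), where 10.1% of all genes were lower in the same fit, and to 31 of 52 against E11.5 (median -0.42), where 11.9% were. The share over all genes was thus lower too than with 8 arrays. Without replicates 5 to 8 the counts were 49 of 52 in both (medians -0.92 and -1.01), where 13.7% and 15.3% of all genes were lower. The test of the second step against the first passed in 9 of 52 without replicates 1 to 4 (3.81% of all genes) and in 40 of 52 without replicates 5 to 8 (7.37% of all genes). Fewer arrays enter either fit.

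Against E12.5, the calls lost without replicates 1 to 4 were those of Ccna2, Ccnb2, Plk4, Cenpf, Cenpk, Ndc80, Nuf2, Kif4, Kif11, Kif15, Kif20b, Prc1, Smc2, Smc4, Ncapg, Mki67, Kif23, Ect2 and Anln. Mki67 was then 0.02 above E12.5 (adjusted p = 0.956) and 0.03 above E11.5 (adjusted p = 0.862). Kif18a and Nek2, which had no call against E12.5, stood 0.13 and 0.03 above it. All checkpoint and passenger genes kept their calls against both folds in that fit. Without replicates 5 to 8, Nek2 was lower against E12.5 (-0.71, adjusted p = 0.0029), as were Kif18a (-0.93, adjusted p = 0.000918) and Spc25 (-0.87, adjusted p = 0.00324), and Spc25 was lower against E11.5 too (-0.77, adjusted p = 0.00752).

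Some marker lists moved with the sets. The mean per array of the muscle markers was 12.35 to 12.56 in replicates 1 to 4 and 11.72 to 12.05 in replicates 5 to 8, and that of the endothelium markers 8.81 to 9.07 and 8.15 to 8.45, with no overlap in either list. The erythroid markers overlapped (7.79 to 8.43 and 8.34 to 9.47), and the hepatocyte markers lay in the same range in both (8.85 to 10.91 and 9.69 to 10.85). The part of muscle, endothelial and hepatic transcripts in the fall of the mitotic genes was not tested.

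With the erythroid mean per array as a covariate, 31 of 52 members were lower against E12.5 (median -0.50), where 12.2% of all genes were in that fit. Against E11.5 it was 38 (median -0.57, 15.9% of all genes), and in the test between the steps 9 (4.42%). This mean changed with stage as well. Its embryonic globins Hbb-bh1 and Hbb-y stood at -5.67 and -4.21 at E16.5 against E12.5, while the median of the 12 erythroid genes was 0.07 against E12.5 and 0.23 against E11.5. The covariate and the stage can therefore not be told apart in full. With sex as a covariate, read per array from the Y-linked Eif2s3y (above or below 7), the counts were 46, 47 and 18. In those fits 15.6%, 18.8% and 6.22% of all genes were lower. The labels do not say whether tissue was pooled, and for pooled tissue this reading would not give the sex of each embryo.

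The neighbouring pathways were described from lists of further cell cycle genes. Of 88 other mitosis genes, 50 were lower against E11.5 and 0 higher (median -0.49), and 58 and 0 against E12.5. Over all genes 19.6% were lower against E11.5 and 15.6% against E12.5. Ska3, of the complex that stabilises kinetochore attachment, fell by 1.30 ± 0.19 against E11.5, Cdc25a, a phosphatase that activates cyclin-dependent kinases, by 1.24 ± 0.14 and Cks1b, a small subunit of those kinases, by 1.14 ± 0.14. Depdc1a had the largest fall of this list, 1.34 ± 0.43 (adjusted p = 0.0169), with E16.5 arrays from 4.49 to 8.53.

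Most of the 44 genes of DNA replication fell too. Of these 39 were lower against E11.5 and 40 against E12.5, 0 higher, with medians of -0.70 and -0.76. The shares of all genes that were lower were 19.6% and 15.6%. Dbf4, the activating subunit of the Cdc7 kinase that fires origins, had 10.08, 10.44 and 10.68 at E11.5, 9.74, 9.95 and 10.34 at E12.5, and 8.15, 8.88 and 9.65 at E16.5, and fell by 1.46 ± 0.18 against E11.5. Mcm4, a subunit of the replicative helicase, fell by 1.31 ± 0.18, Gins1, a helicase cofactor, by 1.29 ± 0.18 and Chaf1b, of chromatin assembly factor 1, by 1.28 ± 0.18. The replication list also differed between the E16.5 sets, with means per array of 8.39 to 8.60 in replicates 1 to 4 and 8.76 to 9.03 in replicates 5 to 8.

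Cohesin, the ring that holds sister chromatids together until separase cuts it, was described from 13 genes. Of these 6 were lower against E11.5 and 2 higher (median -0.30), where 19.6% of all genes were lower and 13.8% higher, so that the share of higher genes was near that of all genes. Pds5b and Pds5a, which regulate the ring, fell by 0.45 ± 0.10 and 0.44 ± 0.08. Esco1, an acetyltransferase of cohesin, rose by 0.87 ± 0.18 and Stag2, a core subunit, by 0.64 ± 0.15. The lists share Cdca5, which was not called in either comparison.

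**Figure D5:**
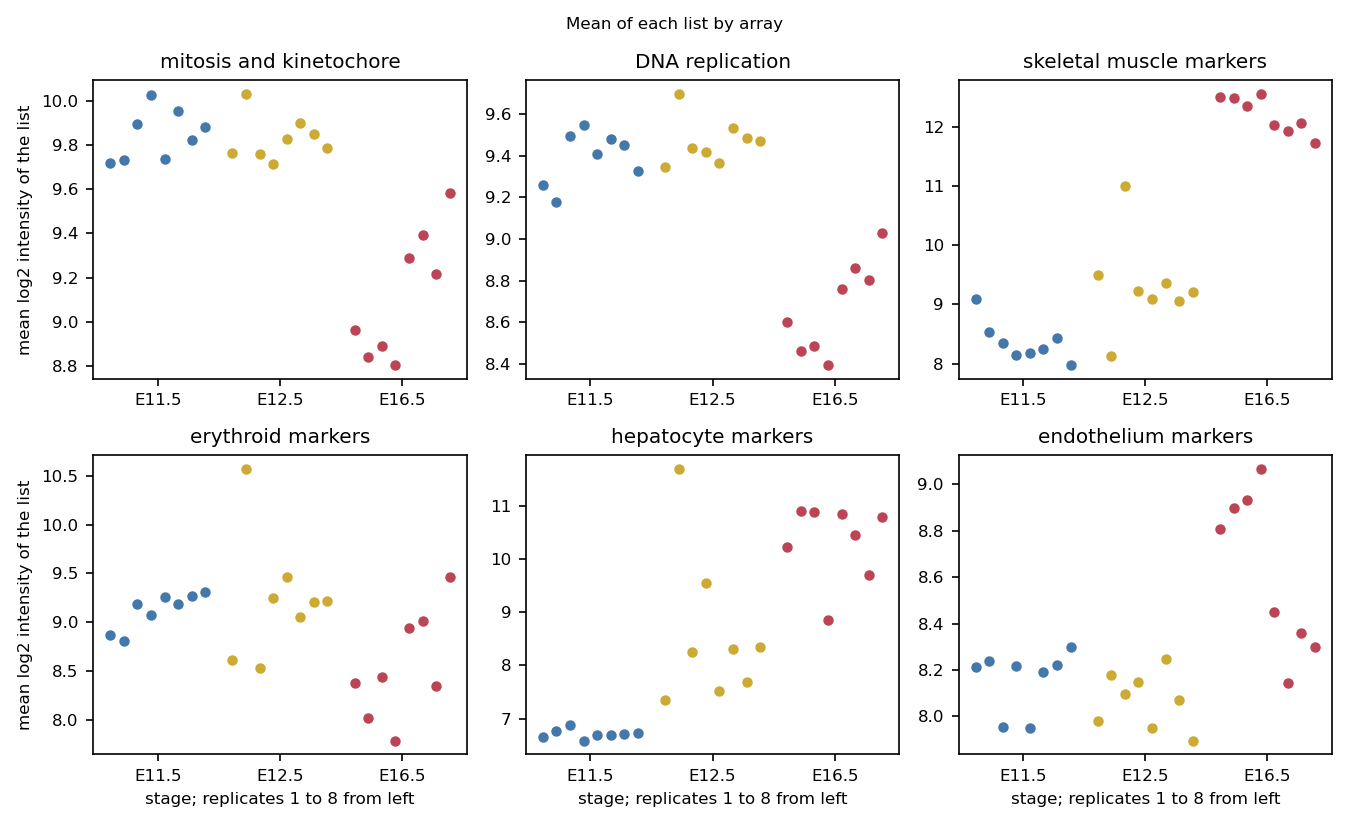
Mean log2 value per array, by stage, of the 52 mitosis and kinetochore genes and of the lists for DNA replication, skeletal muscle, erythroid cells, hepatocytes and endothelium, with replicates 1 to 8 from left to right in each stage. The mitosis and replication panels have the same shape, with E16.5 below both folds and replicates 1 to 4 lowest, and the muscle panel is highest in those arrays.

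The plot of list means by array places these genes beside the muscle markers. Of 19 genes that act at exit from the cycle, 2 were lower and 6 higher against E11.5 (median -0.02), where 19.6% of all genes were lower and 13.8% higher. Against E12.5, 3 were lower, about the share of all genes (15.6%), and 5 higher (2223 of the 19351 genes). Ccng1, a p53 target that encodes cyclin G1, rose most, from 8.67, 9.56 and 9.88 in the E11.5 folds and 9.56, 10.20 and 10.63 in the E12.5 folds to 11.73, 12.00 and 12.22 at E16.5, a change of 2.64 ± 0.17 against E11.5. It was also the only gene of the cell cycle lists to pass between the folds (0.80 ± 0.17, adjusted p = 0.0361). Rb1, which encodes the retinoblastoma protein that restrains E2F, rose by 2.01 ± 0.21, Btg2, an antiproliferative factor, by 1.24 ± 0.16 and Cdkn2c, the inhibitor p18 of Cdk4 and Cdk6, by 0.81 ± 0.26, where 3 E11.5 arrays lay below their lower quartile. Of the genes that were lower, E2f5, a repressor E2F, fell by 0.72 ± 0.19 and Gas2, a growth arrest gene, by 0.56 ± 0.16, while E2f4 was lower against E12.5 only (-0.46 ± 0.15, adjusted p = 0.0179).

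Of 8 D cyclins and partners, which act at the start of the cycle, 4 were lower and 0 higher against E11.5. Over all genes 19.6% were lower and 13.8% higher in that comparison. Ccnd2, which encodes cyclin D2, had 11.07, 11.23 and 11.40 at E11.5, 11.18, 11.42 and 11.53 at E12.5, and 9.62, 9.93 and 10.31 at E16.5, with no overlap. It fell by 1.33 ± 0.08 against E11.5. Its kinase partner Cdk4 fell by 1.32 ± 0.08, E2f3, an activator of S phase genes, by 0.76 ± 0.24 and Ccnd1, cyclin D1, by 0.41 ± 0.14.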

How the data were processed

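RNA of 24 laser-captured samples, 8 per stage, was extracted, amplified and labelled with biotin, per the labels. The authors deposited a table of log2 values, with 1 value for each probe set on each array. The submitters' processing notes name Affymetrix Expression Console 1.1, RMA and R 2.9.2 without their roles, and the log2 scale was inferred from values that span 2.56 to 14.1. RMA brings arrays to 1 distribution, so values show change relative to the other genes. Whether all arrays were normalized together is not given in the sources used here.

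Of 24200 probe sets, 20760 matched 1 symbol. The 1140 with several and the 2300 with none were left out. Of several probe sets of a gene the one with the highest mean was kept, which gave 19351 genes. The fit (limma 3.58.1, R 4.3.3) gave each stage a coefficient over all 24 arrays without covariates; moderated two-sided tests from eBayes were adjusted by Benjamini-Hochberg over all genes, with a threshold of 0.05. The script was tested on simulated data. Tables used Python 3.11.15 with pandas 2.3.3, figures matplotlib 3.10.9.

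The members and lists were chosen with earlier results of these data known. In each role the members with the largest and the smallest fall from E11.5 to E16.5 were described in full, and in each neighbouring list up to 4 called genes with the largest change and genes called against the direction of most calls in their list. Mki67 and the genes with near-equal or most different E16.5 sets were chosen once their values were known. Alternatives covered the arrays in the fit, replicate number as a block, normalization, filters of 25% and 50% of dim genes, probe set means, moderation, array weights, covariates and arrays left out. Equal replicate numbers did not pair arrays: deviations from stage means correlated by -0.28 to 0.09 over 24 pairs, none above 0.1.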

Additional observations from a re-analysis of the deposited data

Results flagged for a closer look

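Within each stage an array was looked at again where its gap to the nearest other array was too large a share of the range of the 8 arrays by Dixon's test. Of 159 groups of arrays tested, 5 met this, and chance alone marks about 1 in 20. In each it was the highest array. Bub3 was 10.12 in E12.5 replicate 2, with the next array at 9.71. Kif15 was 9.74 in E12.5 replicate 6, with the next at 9.53. Incenp was 10.31 in E11.5 replicate 8, with the next at 9.96. At E16.5, Spc24 was 10.06 in replicate 6, with the next at 9.12, and Birc5 was 10.19 in replicate 8, with the next at 9.83.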

How the results depend on the processing

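Under every alternative run, 0 members were called between E11.5 and E12.5. Few of all 19351 genes were called there either. The unequal-variance test called 0 lower and 0 higher, the replicate block 2 and 41, and the erythroid covariate 24 and 129. At such shares a count of 0 among the members says little about them. Against E12.5 the count of members called lower was 27 without E16.5 replicates 1 to 4 (median -0.40), and against E11.5 it was 31 (median -0.42). Of all 19351 genes 1945 and 2297 were lower in that fit. Other alternatives gave 31 to 49 and 38 to 49 members. Where they tested all 19351 genes, 2367 to 3538 and 2963 to 4493 were lower. Without the dimmest 25% it was 3054 and 3268 of 14513 genes, and without the dimmest 50% 2744 and 2646 of 9675. Leaving out 1 array at a time gave 42 to 47 and 45 to 48, where 2791 to 3088 and 3425 to 4469 of all genes were lower. Mki67 reversed without E16.5 replicates 1 to 4, to 0.0168 against E12.5 and 0.0334 against E11.5. Of members without a call, Kif18a and Nek2 turned to 0.126 and 0.026 against E12.5 in that fit and Spc25 to 0.035 against E11.5, while Nek2 stood at 0.446 against E11.5. The test between the steps called 12 members with arrays centred on the 75th percentile, 9 with the erythroid covariate, 9 without E16.5 replicates 1 to 4, 40 without E16.5 replicates 5 to 8, and 14 to 28 with 1 array left out. Of all 19351 genes 720, 855, 737, 1427 and 908 to 1317 were lower in the same fits, in that order. The centring on the 75th percentile moved the median of all genes in this test from 0.02 to 0.14. It moved the split of all genes called between the folds from 11 lower and 64 higher to 31 and 33. The cause of these shifts was not tested, and fits without a set of arrays also have fewer of them. Calls kept under all alternatives numbered 27 of 46, 30 of 48 and 9 of 19. With the replicate block the counts were 45, 46 and 16, where 2888, 3511 and 1069 of all 19351 genes were lower. Equal numbers did not pair arrays, and the closest array of another stage shared the number in 3 of 48 cases.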
